A study of Mus musculus with 12 samples.

Results

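The genes described are 9 genes of zinc handling, found by symbol in the array's platform annotation: the metallothioneins Mt1, Mt2 and Mt3, the zinc sensor Mtf1, the exporters Slc30a1, Slc30a5 and Slc30a8 and the importers Slc39a10 and Slc39a14. Each had 1 probe set with that symbol alone, so they make up 9 of the 35556 probe sets (rows) on the array, or 9 of the 19938 genes with a row of their own. The cells were Min6, an insulin-producing line from a mouse insulinoma used as a model of the pancreatic beta cell, profiled on 12 whole-transcript GeneChip arrays after 3 culture periods of 5 days. In the return condition (RC, 4 arrays) the cells were kept serum-free at 5% oxygen in the middle period and returned to 15% fetal calf serum and 20% oxygen for the last. In the defined condition (DC, 4 arrays) both later periods, 10 days, were serum-free at 5% oxygen. In the classic condition (CC, 4 arrays) all periods were in serum at 20% oxygen. The serum medium was DMEM with 70 µM 2-mercaptoethanol, and the serum-free medium was DMEM-F12 with selenite (30 nM), putrescine (100 µM), progesterone (20 nM) and apo-transferrin (100 µg/mL). All groups began in serum and received penicillin-streptomycin. Serum, oxygen, basal medium and supplements changed together, so their parts cannot be told apart, and the quadruplicates came from a single experiment.

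Metallothioneins are small, cysteine-rich proteins that bind zinc and copper and buffer their free concentration. Their genes are induced by MTF-1, a zinc finger protein that binds short metal response elements (MREs) in promoters when free zinc rises. Transporters of the Slc30 (ZnT) family carry zinc out of the cytosol, across the plasma membrane or into organelles, and those of the Slc39 (ZIP) family carry it into the cytosol. In beta cells Slc30a8 loads zinc into the secretory granules, where it is stored with insulin.

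The promoters of the metallothioneins are shown because MREs are the sites that MTF-1 binds, together with that of Slc30a1, another known target of MTF-1 in mouse cells. The windows run from 250 bases before to 50 bases after the RefSeq transcript start, 5′ to 3′ on the gene's strand, in build GRCm38.p6. Capitals mark matches to the MRE core, searched as TGCACNC and TGCGCNC on both strands. The 4 windows are chr8:94178839-94179138 (Mt1), chr8:94172368-94172667 (Mt2), chr8:94152357-94152656 (Mt3) and chr1:191906531-191906830 (Slc30a1), all on the plus strand. The RefSeq gene records of Mt1 and Slc30a1 begin at other bases, 94178883 and 191906697, which lie inside these windows before the start used. The matches therefore describe 1 start of each gene, and bases outside its window were not searched.
Mt1: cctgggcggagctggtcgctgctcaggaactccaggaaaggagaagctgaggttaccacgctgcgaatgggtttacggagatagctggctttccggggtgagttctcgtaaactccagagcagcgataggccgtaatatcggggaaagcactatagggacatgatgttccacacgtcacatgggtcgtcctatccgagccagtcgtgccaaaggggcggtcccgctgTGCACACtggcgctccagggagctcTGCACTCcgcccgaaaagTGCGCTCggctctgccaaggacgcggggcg
Mt2: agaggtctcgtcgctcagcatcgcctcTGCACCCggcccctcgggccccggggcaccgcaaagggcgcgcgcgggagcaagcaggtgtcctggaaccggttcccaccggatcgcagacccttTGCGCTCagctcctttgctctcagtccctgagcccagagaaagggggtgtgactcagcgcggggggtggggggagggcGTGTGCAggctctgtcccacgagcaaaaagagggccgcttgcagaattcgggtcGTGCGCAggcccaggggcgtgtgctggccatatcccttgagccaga
Mt3: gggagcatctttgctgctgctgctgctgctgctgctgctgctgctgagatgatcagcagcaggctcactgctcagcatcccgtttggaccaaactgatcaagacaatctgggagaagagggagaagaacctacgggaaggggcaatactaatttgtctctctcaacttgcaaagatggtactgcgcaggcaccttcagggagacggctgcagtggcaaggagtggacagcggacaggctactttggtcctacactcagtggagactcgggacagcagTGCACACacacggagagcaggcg
Slc30a1: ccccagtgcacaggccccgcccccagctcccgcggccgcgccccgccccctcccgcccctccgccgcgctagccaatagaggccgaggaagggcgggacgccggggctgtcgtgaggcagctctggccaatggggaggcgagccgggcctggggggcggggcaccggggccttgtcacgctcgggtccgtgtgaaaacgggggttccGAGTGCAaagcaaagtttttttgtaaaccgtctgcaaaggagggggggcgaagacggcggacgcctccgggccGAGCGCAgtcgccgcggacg
In these windows Mt2 has 4 core matches, Mt1 has 3, Slc30a1 has 2 and Mt3 has 1. Of all 32851 RefSeq promoter windows of this length, 25.7% hold at least 1 match, 7.11% at least 2, 1.97% at least 3 and 0.517% at least 4. A window was found for 7 of the 9 genes (8 windows). The window of Slc30a5 has 1 match, and those of Mtf1 and of both Slc39a10 starts have 0. Slc30a8 and Slc39a14 were not among the windows used here. The core of the hypoxia response element, searched as ACGTG and GCGTG on both strands, has 2 matches each in the Mt1 and Mt2 windows, 1 in that of Slc30a1 and 4 in that of Slc30a5, of which 2 are the same palindrome read on both strands. At least 1 such match is found in 43.8% of all windows, at least 2 in 20.6% and at least 4 in 3.86%. In the Mt2 window 1 hypoxia core overlaps an MRE core. A match describes letters in the window and does not show binding.

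**Figure D1:**
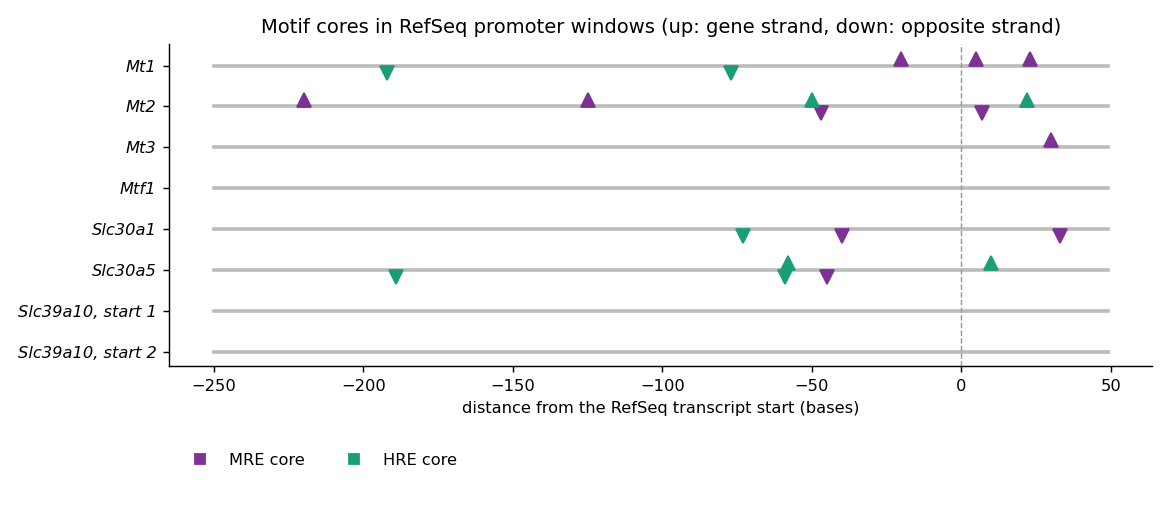
Positions of MRE cores (purple) and hypoxia response element cores (green) in the 8 RefSeq promoter windows. The x axis is the distance in bases from the transcript start; triangles point up for matches on the gene's strand and down for the opposite strand. Mt1 and Mt2 hold 3 and 4 MRE cores, and the windows of Mtf1 and Slc39a10 hold 0 of either core.

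The 12 arrays had medians of 7.92 to 8.05 on the log2 scale. The spread of values narrowed on 3 of them: the interquartile range was 2.42 on RC 3, 2.47 on DC 2 and 2.44 on DC 4, against 2.57 to 2.75 on the other arrays, and RC 3 also correlated least with its own group (mean r = 0.976, against 0.989 to 0.990 for the other RC arrays). Where leaving out these 3 arrays ends a call or makes one among the genes described, the value without them is given. Of 12 beta cell markers listed, 11 had a row, and their mean lay at 11.46 to 11.60 on the RC arrays, 11.62 to 11.71 on the DC arrays and 11.57 to 11.60 on the CC arrays. The means of 3 endothelial markers were 7.05 to 7.31 in RC, 7.08 to 7.33 in DC and 6.98 to 7.13 in CC, and those of 6 fibroblast markers 7.35 to 7.74 in RC, 7.38 to 7.72 in DC and 7.33 to 7.51 in CC. Immune markers (4) had means of 7.30 to 7.61 in RC, 7.29 to 7.52 in DC and 7.24 to 7.36 in CC, and acinar and ductal markers (4) 7.14 to 7.61 in RC, 7.17 to 7.54 in DC and 7.19 to 7.34 in CC. The beta cell list holds Slc30a8 itself, and 1 other beta cell marker, the transcription factor gene Nkx2-2, passed with the same directions. Nkx2-2 was at 0.29 in DC against CC (limma adjusted p = 0.0186) and at -0.34 in RC against DC (adjusted p = 0.0174). Of all rows 2.31% were called higher in DC against CC and 1.18% lower in RC against DC. Without RC 3, DC 2 and DC 4 Nkx2-2 was at 0.29 (adjusted p = 0.0642) and -0.32 (adjusted p = 0.0743) and did not pass. The part of Nkx2-2 in the result for Slc30a8 was not tested. The means of 3 markers of other islet cells were 11.05 to 11.26 in RC, 10.42 to 10.86 in DC and 10.97 to 11.24 in CC. Of these markers Sst, the somatostatin gene, differed by -1.26 in DC against CC (limma adjusted p = 0.0066) and by 1.70 in RC against DC (adjusted p = 0.00195). Of all rows 4.32% were called lower in the first comparison and 1.45% higher in the second. Without RC 3, DC 2 and DC 4 Sst was at -1.39 and 1.78. The part of Sst in the results was not tested. No marker of the endothelial, fibroblast, immune or acinar and ductal lists passed the test in any comparison (limma). Without those 3 arrays the immune marker Cd68 did, at 0.46 in DC against CC (adjusted p = 0.00401) and 0.30 in RC against CC (adjusted p = 0.0443). In that fit 845 of 35556 rows were called higher in DC against CC and 239 in RC against CC. Each array measured a whole culture, so that more transcript per cell and more cells with the transcript cannot be told apart.

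**Figure D2:**
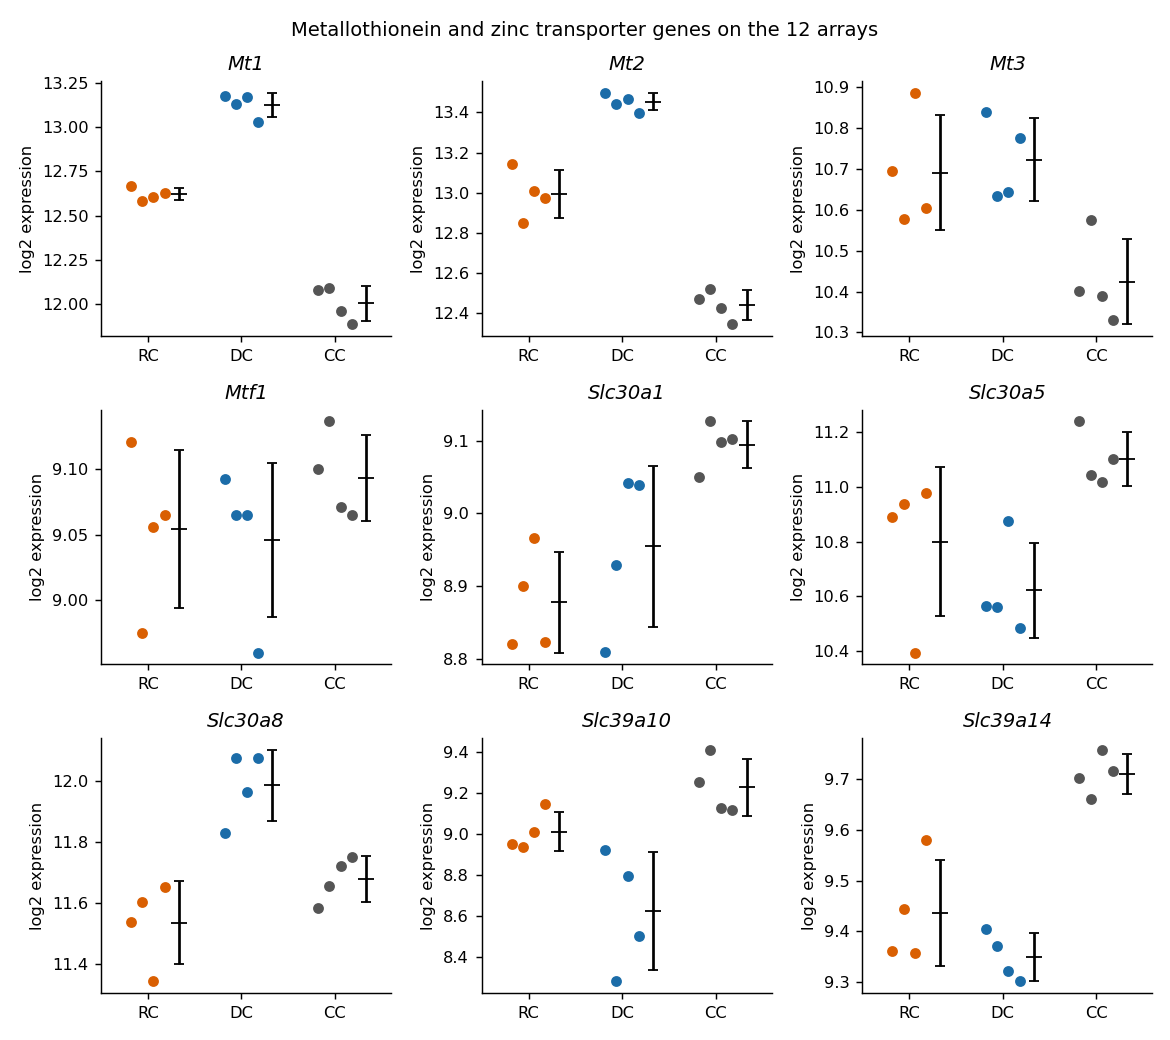
Log2 expression of the 9 genes on each of the 12 arrays (points; 4 per condition, RC, DC and CC from left to right), with the mean and SD of the 4 arrays beside them. Mt1 and Mt2 form 3 separate levels, with DC highest, RC between and CC lowest; Slc39a14 is lower on all RC and DC arrays than on any CC array. The y axes differ between panels.

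Serum-free culture at low oxygen (DC) was first set against CC. Mt1 and Mt2 rose 2.18-fold and 2.02-fold, the granule transporter Slc30a8 rose 1.24-fold, and the transporters Slc39a10, Slc39a14 and Slc30a5 fell. Thus 6 of the 9 genes passed the test (limma adjusted p under 0.05 over all rows), 3 higher and 3 lower, where 6.64% of all rows passed, 2.31% higher and 4.32% lower. All 9 genes had a mean above the median of all values, 7.99, and of rows above it 4.77% were called higher and 9.86% lower when tested alone. The groups did not overlap for 8 of the 9 (15.3% of all rows), with 4 higher (7.29%) and 4 lower (7.96%). The median difference of the 9 was -0.05 on the log2 scale, against 0.04 over all rows. These genes were chosen with earlier results of the same arrays known, so the shares describe them and test nothing.

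Mt1 read 12.66, 12.58, 12.61 and 12.63 on the RC arrays, 13.17, 13.13, 13.17 and 13.03 on the DC arrays and 12.08, 12.09, 11.96 and 11.89 on the CC arrays (log2 expression). The 3 conditions formed separate levels with no overlap, and the widest spread within a condition, that of CC, was 0.20. The log2 difference came to 1.12 ± 0.06 for DC against CC (2.18-fold, adjusted p = 9.74e-07 with limma), the 12th smallest p of all rows. The SE is limma's, from 1 fit to the 12 arrays together, 4 in each condition. RC differed from DC by -0.51 ± 0.06 (1.42-fold; adjusted p = 0.000717) and from CC by 0.62 ± 0.06 (1.53-fold; adjusted p = 0.000881). RC against CC and DC against CC share the CC arrays.

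Mt2, its neighbour on mouse chromosome 8 and the other widely expressed metallothionein, read 13.14, 12.85, 13.01 and 12.98 in RC, 13.50, 13.44, 13.47 and 13.40 in DC and 12.47, 12.52, 12.43 and 12.35 in CC. Its levels kept the same order with no overlap. DC differed from CC by 1.01 ± 0.07 (2.02-fold; adjusted p = 3.42e-06), and RC differed from DC by -0.46 ± 0.07 (1.37-fold; adjusted p = 0.00264) and from CC by 0.55 ± 0.07 (1.47-fold; adjusted p = 0.0037). Mt1 and Mt2 passed in each comparison in all 22 alternative settings, among them each of the 12 arrays left out in turn. Without RC 3, DC 2 and DC 4 the difference between DC and CC was 1.17 for Mt1 and 1.04 for Mt2, that between RC and DC -0.55 and -0.50, and that between RC and CC 0.62 and 0.55. The adjusted p over the alternatives reached at most 4.2e-05 for Mt1 and 0.000146 for Mt2 in DC against CC.

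Mt3, the metallothionein known mainly from brain, read 10.70, 10.58, 10.89 and 10.60 in RC, 10.84, 10.63, 10.64 and 10.77 in DC and 10.40, 10.57, 10.39 and 10.33 in CC. Every RC and DC array lay above every CC array, though CC 2 lay only just below RC 2. The differences, 0.30 ± 0.08 for DC against CC (adjusted p = 0.0532) and 0.27 ± 0.08 for RC against CC (adjusted p = 0.233), did not pass. The first passed in 6 of the 22 alternative settings: without CC 2 (adjusted p = 0.0402), without RC 3 (0.018), after quantile normalization (0.041), among rows above the median (0.0308), with array weights (0.00516) and with 2 groups in the fit (0.0434). The second passed with array weights alone (adjusted p = 0.0115). RC against DC was -0.03 ± 0.08, with a 95% interval of -0.21 to 0.15. Mt4, a metallothionein of stratified epithelia, did not pass either (0.21 ± 0.08 for DC against CC).

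The transcript of the sensor Mtf1 lay between 8.98 and 9.12 in RC, 8.96 and 9.09 in DC and 9.07 and 9.14 in CC. Its groups overlapped in each comparison. DC differed from CC by -0.05 ± 0.05 (95% interval -0.17 to 0.07). RC differed from DC by 0.01 ± 0.05 (-0.11 to 0.13) and from CC by -0.04 ± 0.05 (-0.16 to 0.08), and none of these passed. The same value, 9.07, stood on 4 arrays (RC 4, DC 2, DC 3 and CC 4). Such a repeat on at least 4 arrays occurred in 2.99% of all rows.

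Slc30a1, the plasma membrane exporter, read 8.82, 8.90, 8.97 and 8.82 in RC, 8.81, 8.93, 9.04 and 9.04 in DC and 9.05, 9.13, 9.10 and 9.10 in CC. All RC and DC arrays lay below the CC arrays, but the differences did not pass. DC differed from CC by -0.14 ± 0.06 (95% interval -0.28 to 0.00; adjusted p = 0.244). RC differed from CC by -0.22 ± 0.06 (95% interval -0.36 to -0.08; adjusted p = 0.196) and from DC by -0.08 ± 0.06. RC against CC passed in 2 of the 22 alternative settings, with the interquartile range in the fit and with array weights (limma adjusted p down to 0.00397). Whether Slc30a1 and the metallothioneins differ in response was not tested.

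Slc30a8 read 11.54, 11.61, 11.35 and 11.65 in RC, 11.83, 12.08, 11.96 and 12.07 in DC and 11.59, 11.65, 11.72 and 11.75 in CC. The DC arrays lay above all others, and RC and CC overlapped. It rose in DC against CC by 0.31 ± 0.08 (1.24-fold; adjusted p = 0.0404) and fell in RC against DC by 0.45 ± 0.08 (1.37-fold; adjusted p = 0.00916). RC against CC, at -0.14 ± 0.08, did not pass. The rise in DC was lost when any 1 array other than DC 1, RC 3 or RC 4 was left out (adjusted p up to 0.133) and with the interquartile range in the fit (0.29; adjusted p = 0.0871), whereas the fall in RC passed with each array left out in turn (adjusted p up to 0.0395). Without RC 3, DC 2 and DC 4 the values were 0.22 (adjusted p = 0.139) and -0.30 (adjusted p = 0.0719).

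Slc30a5, which moves zinc into compartments of the early secretory pathway, read 10.89, 10.94, 10.39 and 10.98 in RC, 10.57, 10.56, 10.88 and 10.49 in DC and 11.24, 11.04, 11.02 and 11.10 in CC. All DC and RC arrays were below the CC arrays, and RC 3 lay below every DC array. The gene fell in DC against CC by 0.48 ± 0.13 (1.39-fold; adjusted p = 0.041). It no longer passed when any 1 array other than DC 3, RC 3 or RC 4 was omitted (adjusted p up to 0.132) or when the interquartile range was in the fit (-0.32; adjusted p = 0.134), and the difference was -0.38 (adjusted p = 0.0511) without RC 3, DC 2 and DC 4. RC differed by 0.18 ± 0.13 from DC and by -0.30 ± 0.13 from CC, and neither passed.

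Slc39a10, an importer of the plasma membrane that MTF-1 is known to repress in mouse cells, read 8.95, 8.94, 9.01 and 9.15 in RC, 8.92, 8.28, 8.79 and 8.50 in DC and 9.26, 9.41, 9.13 and 9.12 in CC. The DC arrays lay below all others and spread over 0.64, and RC and CC overlapped through RC 4. The gene fell in DC against CC by 0.60 ± 0.13 (1.52-fold; adjusted p = 0.0107), and passed with each array left out in turn (adjusted p up to 0.0398). Its lowest values came from DC 2 and DC 4, the DC arrays of narrow spread. Without these and RC 3 the difference was -0.37 (adjusted p = 0.0677), and in a fit that held the array's interquartile range it was -0.45 (adjusted p = 0.0322). RC against DC was 0.39 ± 0.13 and RC against CC -0.22 ± 0.13, and neither passed (adjusted p = 0.172 and 0.679).

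Slc39a14, an importer of zinc that also carries iron and manganese, read 9.36, 9.44, 9.36 and 9.58 in RC, 9.40, 9.37, 9.32 and 9.30 in DC and 9.70, 9.66, 9.76 and 9.72 in CC. The RC and DC arrays overlapped, and both groups were below all CC arrays. It fell in DC against CC by 0.36 ± 0.06 (1.28-fold; adjusted p = 0.00311) and passed in all 22 alternative settings, at -0.35 without RC 3, DC 2 and DC 4. RC against DC was 0.09 ± 0.06, with a 95% interval of -0.05 to 0.22. RC against CC was -0.27 ± 0.06 and did not pass (adjusted p = 0.0692), but did without RC 4, the highest RC array (adjusted p = 0.0455), with arrays centred on a common median (0.0439), among rows above the median (0.0435) and with array weights (0.00841).

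**Figure D3:**
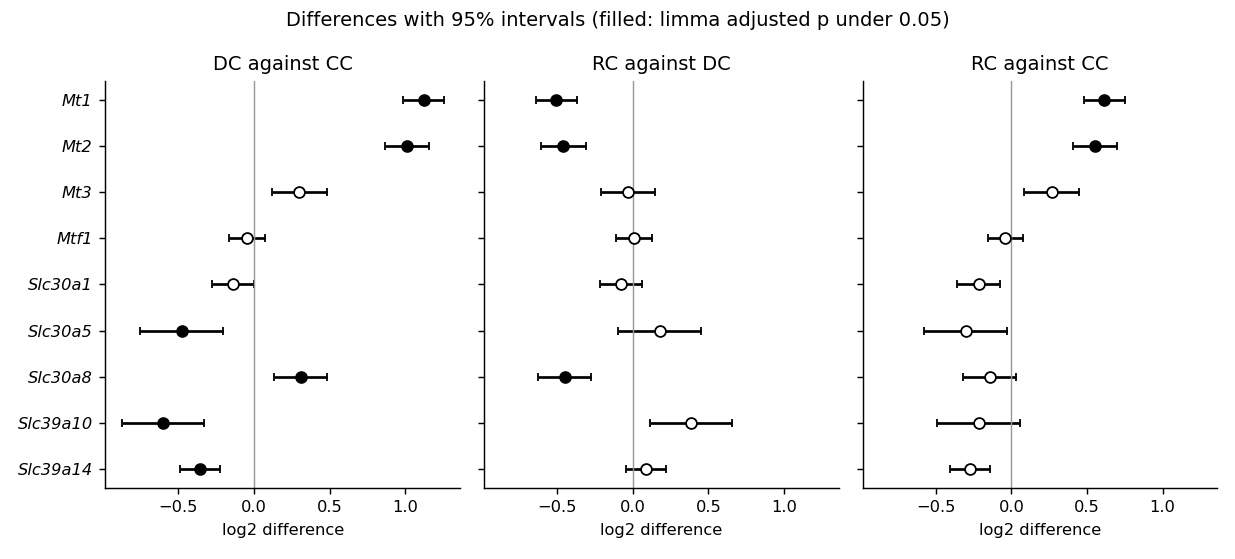
Log2 differences of the 9 genes with 95% intervals (limma) in the 3 comparisons, from left to right DC against CC, RC against DC and RC against CC. Filled points passed an adjusted p under 0.05 over all rows. Mt1 and Mt2 are filled in every panel, Slc30a8 in the first and second, and Slc30a5, Slc39a10 and Slc39a14 in the first alone.

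RC was compared with DC to set 5 days back in serum against staying serum-free. Mt1, Mt2 and Slc30a8 were lower in RC, and the other 6 genes did not pass. The 3 of 9 that passed stand beside 2.63% of all rows (1.45% higher, 1.18% lower), and 3.26% higher and 2.67% lower of the rows above the median. The groups did not overlap for 4 genes, these and Slc39a10, against 6.29% of all rows (3.06% higher, 3.23% lower). RC arrays had 5 serum-free days and DC arrays 10, so the length of exposure and the return cannot be told apart. RC was compared with CC to set returned cells against cells kept in serum throughout. Mt1 and Mt2 were higher in RC, and none of the other 7 passed, where 0.796% of all rows did (0.121% higher, 0.675% lower), and 0.338% higher and 2.13% lower of the rows above the median. For 6 genes the groups did not overlap (7.94% of all rows, 2.49% higher and 5.45% lower): the metallothioneins were higher on all RC arrays, and Slc30a1, Slc30a5 and Slc39a14 lower.

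Of 25 other zinc handling genes with a row, 7 fell and none rose in DC against CC, where 4.32% of all rows were lower and 2.31% higher, and 9.86% lower of the rows above the median, where 20 of the 25 lie. They were the exporters Slc30a6 (-0.55 ± 0.13) and Slc30a7 (-0.47 ± 0.09), which serve the early secretory pathway, the importers Slc39a1 (-0.51 ± 0.09), Slc39a6 (-0.35 ± 0.09), Slc39a9 (-0.34 ± 0.08) and Slc39a13 (-0.44 ± 0.07), and Tmem163 (-0.44 ± 0.08), a zinc-binding vesicle protein. The second row of Slc39a1 fell as well (-0.42 ± 0.11; adjusted p = 0.0393). By family these were 2 of 7 exporters, 4 of 12 importers and 1 of 6 other genes. The median difference of the 25 was -0.04, against 0.04 over all rows. Slc30a4 (-0.59 ± 0.18; adjusted p = 0.0719) and the exporters Slc30a2, Slc30a3, Slc30a9 and Slc30a10 did not pass. Of the 25, 4 passed without DC 2 (Slc30a7, Slc39a1, Slc39a13 and Tmem163), 10 without RC 3, and 4 without RC 3, DC 2 and DC 4. The last were Slc30a4 (-0.35), Slc30a7 (-0.40), Slc39a1 (-0.50) and Slc39a13 (-0.41). In that fit Slc30a6 was at -0.34, Slc39a6 at -0.32, Slc39a9 at -0.23 and Tmem163 at -0.35. Over all 35556 rows, 1011 were called lower without DC 2, 2376 without RC 3 and 1124 without RC 3, DC 2 and DC 4. The fit reported called 1537 rows lower.

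In RC against DC 0 of these 25 genes passed with limma (2.63% of all rows), and 3 had an unadjusted p under 0.05. The largest p of these 3, 0.0499 for Gpr39 (limma, unadjusted), ranked 4199 by p among all 35556 rows. Trpm7 passed without RC 3, a fit in which 2892 of 35556 rows did. In RC against CC 1 passed (0.796% of all rows): Slc39a13, an importer of the secretory pathway, was at 10.40 ± 0.09 in RC against 10.78 ± 0.09 in CC (SD, n = 4; difference -0.38 ± 0.07; adjusted p = 0.0344). It passed without DC 1, DC 3, DC 4 or RC 3, and in none of the fits that omitted another single array. A further 8 of the 25 genes were lower on all RC arrays than on any CC array without passing (5.45% of all rows were lower without overlap), among them Slc30a7 (-0.35 ± 0.09) and Slc39a1 (-0.38 ± 0.09).

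**Figure D4:**
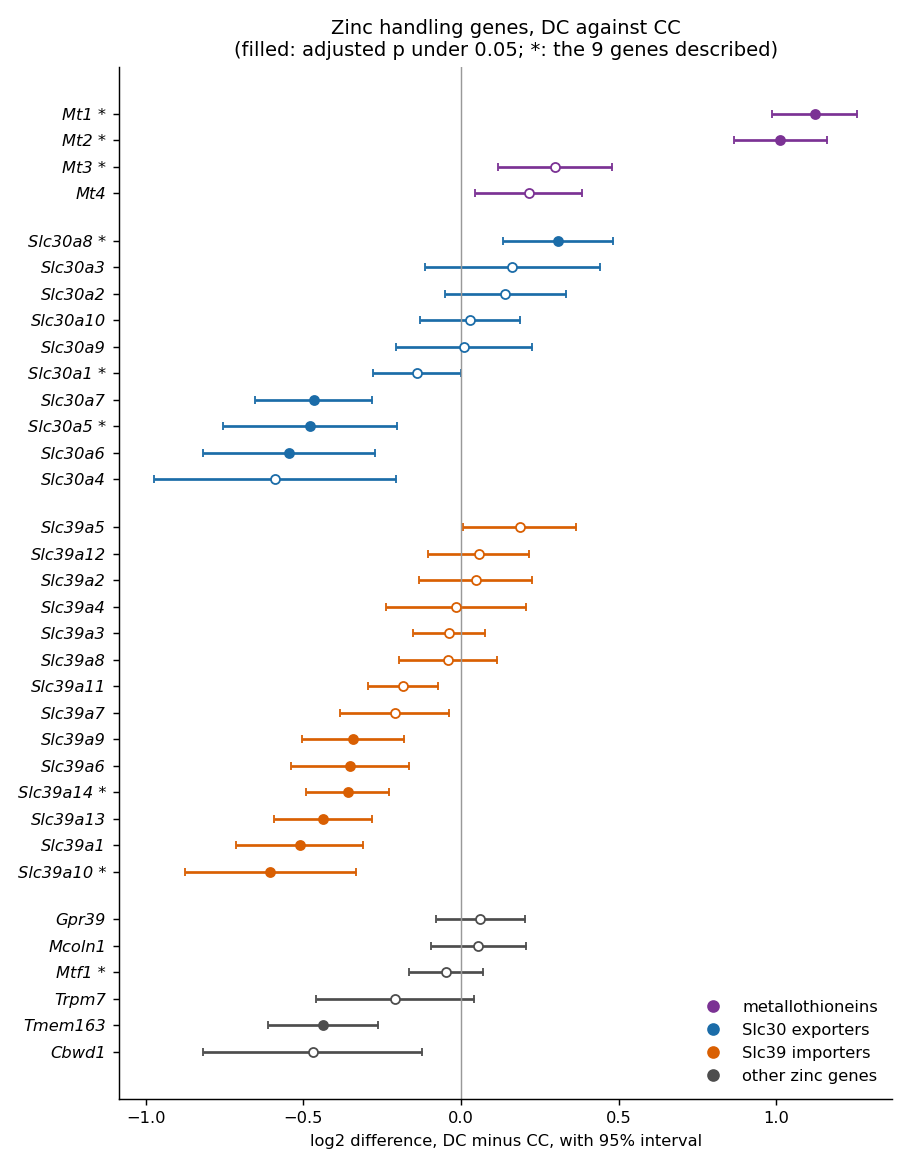
Log2 difference, DC minus CC, with 95% intervals for the 9 genes (starred) and the 25 other zinc handling genes, ordered by difference within each class. Filled points passed an adjusted p under 0.05. The filled points above 0 are Mt1, Mt2 and Slc30a8; the 10 filled points below 0 lie between -0.60 and -0.34.

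Of 5 further genes described as dependent on MTF-1 in mouse cells, 1 passed in DC against CC (6.64% of all rows). Ndrg1, also a well-known hypoxia gene, rose by 1.39 ± 0.11 in DC against CC and fell by 1.17 ± 0.11 in RC against DC. The selenoprotein Selenow (0.14 ± 0.14), the glutathione synthesis gene Gclc (-0.16 ± 0.11), Csrp1 (-0.10 ± 0.10) and the growth factor Pgf (0.14 ± 0.12) did not pass in DC against CC. Set beside the metallothioneins, all 6 hypoxia genes listed rose in DC against CC (2.31% of all rows higher) and fell in RC against DC (1.18% of all rows lower), also without RC 3, DC 2 and DC 4. Bnip3 and Ak4 each had 2 rows, and only the row with the higher mean over all arrays is described. In RC against CC the glycolytic Ldha was at 0.50 ± 0.16, Bnip3 at 0.94 ± 0.20 and Slc2a1 at 0.08 ± 0.20. There 0 of the 6 passed with limma (0.796% of all rows), with 4 at an unadjusted p under 0.05. Over all 35556 rows of that comparison, an unadjusted p of 0.0553, that of Mt4, ranked 3447. Without the 3 narrow arrays Pdk1 (0.92), Bnip3 (0.97) and Ak4 (0.97) passed in RC against CC, where 239 of 35556 rows were called higher. In that fit Ndrg1 was at 1.49 in DC against CC and -1.32 in RC against DC.

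The genes whose profiles lay nearest to those of the metallothioneins were sought among 17260 genes by the root mean square difference over the 12 arrays, after each gene's CC mean was subtracted. Mt2 was at 0.09 from Mt1 on the log2 scale. Whether the probes of either gene also bind the transcript of the other was not tested. Outside the 9 genes the nearest to Mt1 was the cytokine gene Mif (0.10), followed by the cadherin Cdh23 (0.16), Olfml3 (0.19), the activin receptor Acvr1c (0.19) and Cpeb1 (0.20). For Mt2 they were Mif (0.11), Cdh23 (0.14), the calcium channel gene Cacna1e (0.18), Epm2a (0.18) and Acvr1c (0.19). Mif differed by 1.15 in DC against CC, -0.62 in RC against DC and 0.53 in RC against CC, and its other rows by 1.27 and 1.23, -0.73 and -0.69, and 0.54 and 0.54. Mif has processed copies in the mouse genome, and how far its rows measure them was not tested. Nearest to Slc39a10 were Rorb (0.10), Tmem267 (0.10), Reep3 (0.11), Cmas (0.11) and Srprb (0.12). Their DC values were lowest on DC 2 or DC 4, but they were picked for likeness to Slc39a10 on these same arrays.

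**Figure D5:**
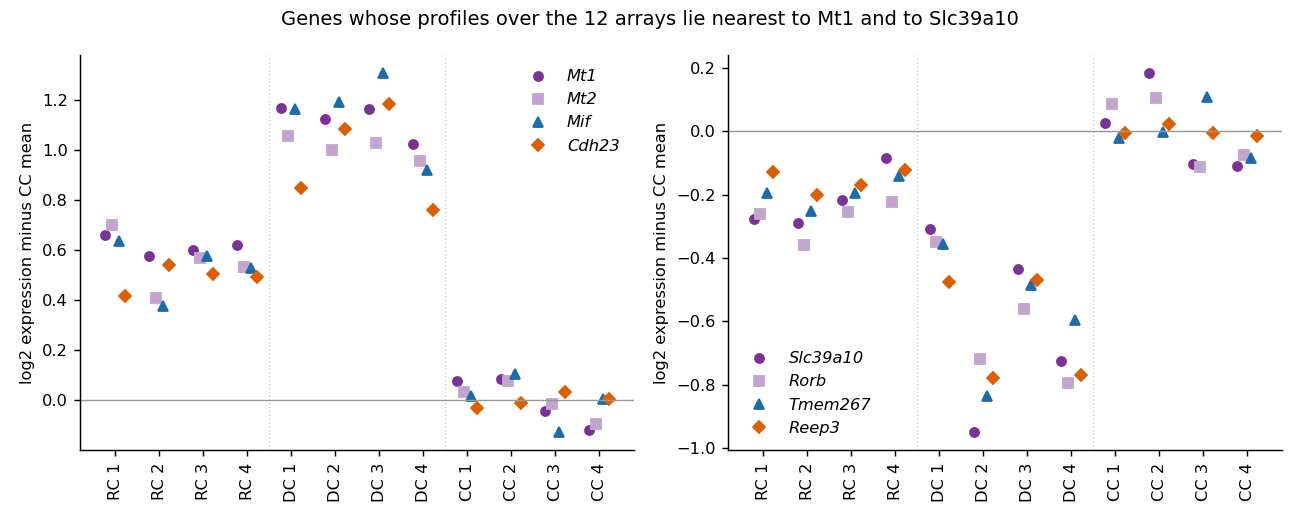
Log2 expression minus the CC mean on the 12 arrays (RC, DC and CC from left to right) for Mt1, Mt2 and the nearest genes Mif and Cdh23 (left) and for Slc39a10 and the nearest genes Rorb, Tmem267 and Reep3 (right). In the left panel DC values lie at 0.76 to 1.31 and RC values at 0.38 to 0.70; in the right panel DC 2 and DC 4 are the lowest arrays.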

How the data were processed

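RNA of Min6 cultures had been labelled as biotinylated cDNA and hybridised to whole-transcript arrays, per the labels' protocols. The deposited table holds 1 log2 value per row and array (3.69 to 14.5). That the authors' values are log2 was read from this range, and no source used here names the summarising software or the normalization. Rows were named through the platform annotation: 21789 of 35556 carry 1 symbol, 1621 several and 12146 none. Groups came from the sample titles. A model with a mean for each condition was fitted in limma 3.58.1 (R 4.3.3) to the 12 arrays together, which leaves 9 residual degrees of freedom; two-sided p-values were Benjamini-Hochberg adjusted over all rows of each comparison, threshold 0.05. The code was tested on simulated data. Errors are limma's SE for differences and SDs over 4 arrays for levels. The p-values measure the spread between samples of a single experiment, which may be technical; precision is limited by how many arrays there are. No detection calls were used, so no value could be set against background. Levels were compared within a row, except for the median of all values and the marker means, which set different rows side by side.

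The 9 genes, the other lists (exporters, importers, other zinc genes, MTF-1 dependent, copper, steroid, hypoxia and cell type markers) and the naming rule were chosen with earlier results of these data known. The rule names all 9 genes, list members that passed, and the 5 nearest profiles. Other list members are named where a list is described, and the Mif rows, the neighbours of the metallothionein cluster and the hypoxia core were chosen after values were seen. Of the rows with 1 symbol, 21698 matched a RefSeq table of GRCm38.p6. Promoter windows and their coordinates come from RefSeq. The alternatives were arrays centred on a common median, quantile normalization, the interquartile range as a covariate, a filter on low rows and another variance prior. Further ones were array weights, fits of 2 groups, a replicate block, removal of copied rows and each array left out. Chosen after seeing the data, 3 arrays of narrow spread were also left out together.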

Additional observations from a re-analysis of the deposited data

Results flagged for a closer look

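One of the 27 sets of 4 arrays (9 genes in 3 conditions) held an array that stood apart from the others. Slc30a5 read 10.39 on RC 3, while the nearest RC array read 10.89, a gap of 0.847 of the whole range, above Dixon's 95% critical value. Chance flags about 1 in 20 such sets. RC 3 also had the narrowest interquartile range of the 12 arrays (2.42). Without it the differences of Slc30a5 were 0.31 for RC against DC (adjusted p = 0.0567) and -0.17 for RC against CC (adjusted p = 0.598), and neither passed.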

How the results depend on the processing

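Across the alternatives no difference of the 9 genes that passed in either setting changed sign: 552 values stayed on their side of the threshold, 27 no longer passed and 15 newly passed. The rises of Mt1 and Mt2 ranged from 1.07 to 1.19 and from 0.96 to 1.06 in DC against CC. With array weights 4840, 6413 and 2818 rows passed in DC against CC, RC against DC and RC against CC (2360, 936 and 283 in the fit reported), with 5 of the 9 genes in each of the last 2 comparisons and 12, 5 and 8 other zinc handling genes. With the interquartile range as a covariate 1737 rows and 1 other zinc handling gene, Cbwd1, passed in RC against DC and 636 rows in RC against CC. Of rows with a mean above the median, 439 passed in RC against CC. With 2 groups in the fit 462 rows passed in RC against DC and 0 other zinc handling genes in RC against CC. Without RC 3, DC 2 and DC 4, 3 of the 9 genes (Mt1, Mt2 and Slc39a14) and 4 other zinc handling genes passed in DC against CC, and 580 rows in RC against CC. With arrays centred on a common median 502 rows were higher and 1698 lower in DC against CC (823 and 1537 in the fit reported), and Slc30a8 no longer passed (0.26, adjusted p = 0.0911); with the covariate the split was 1203 and 1253. Slc30a8 also did not pass in RC against DC with only those groups fitted (adjusted p = 0.0522), and Slc39a13 did not pass in RC against CC after quantile normalization, where Slc39a9 did. In RC against CC the rows higher and lower were 1477 and 1341 with array weights, 272 and 364 with the covariate and 239 and 341 without RC 3, DC 2 and DC 4 (43 and 240 in the fit reported). Quantile normalization gave 616 rows higher and 619 lower in RC against DC.

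With single arrays left out, the rows called ranged from 1549 to 3718 in DC against CC, from 522 to 2892 in RC against DC and from 57 to 352 in RC against CC. RC 3 gave the highest of the first and second ranges, DC 2 and RC 1 their lowest values. The 9 genes gave 4 to 7, 3 to 3 and 2 to 3 calls, and the other zinc handling genes 4 to 10, 0 to 1 and 0 to 1. The replicate numbers did not pair the arrays. Deviations of same-numbered arrays correlated at -0.36 to 0.47, and an array correlated best with its own number in 5 of 24 cases. With the replicate number as a block 68 rows and 0 other zinc handling genes passed in RC against CC, and Slc30a5 did not pass in DC against CC (adjusted p = 0.0941). The cause of these shifts was not tested.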

Other observations

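Copper handling genes were counted because metallothioneins also bind copper. Of 11 with a row, 2 rose and 1 fell in DC against CC (6.64% of all rows passed). The copper importer Slc31a1 fell by 0.82 ± 0.14 (adjusted p = 0.00389), and the copper exporter Atp7b rose by 0.42 ± 0.09 (adjusted p = 0.0139), as did Commd1 (0.25 ± 0.06). Without RC 3, DC 2 and DC 4 they were at -0.61, 0.55 and 0.20, and Commd1 did not pass (adjusted p = 0.111). Atp7b was also lower in RC than in DC, at -0.48 ± 0.09, where 1.18% of all rows were called lower. In RC against CC 0 of the 11 passed with limma (0.796% of all rows). An unadjusted p under 0.05 was found for 2, Slc31a1 (ranked 2145 by p among all 35556 rows) and Slc31a2 (ranked 948). Of 10 steroid receptors and steroid-induced genes, 1 fell in DC against CC and none rose (4.32% and 2.31% of all rows): Klf9 was at -0.46 ± 0.09 there and at 0.40 ± 0.09 in RC against DC, and without those arrays at -0.42 and 0.36 (adjusted p = 0.0346 and 0.102). The progesterone receptor gene Pgr (0.20 ± 0.09) and the glucocorticoid-induced Fkbp5 (0.22 ± 0.08) and Tsc22d3 (-0.25 ± 0.08) did not pass. In DC against CC 6 of the 10 had an unadjusted p under 0.05, among them Pgr, which ranked 6768 by p among all 35556 rows. The groups did not overlap for 2 that were higher, 1 of them Fkbp5, and 2 that were lower (7.29% and 7.96% of all rows).

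In RefSeq order the metallothionein cluster on mouse chromosome 8 runs Mt4, Mt3, Mt2, Mt1. Its neighbours with a row are Nudt21, Ogfod1 and Bbs2 on one side and Nup93, Slc12a3, Herpud1 and Nlrc5 on the other. Of these neighbours, Bbs2 passed in DC against CC (0.35 ± 0.08; adjusted p = 0.0248), where 6.64% of all rows did, and was at 0.41 (adjusted p = 0.0249) without RC 3, DC 2 and DC 4. Nup93, next to Mt1, was at -0.23 ± 0.08 (adjusted p = 0.0989). Nlrc5 was at 0.28 ± 0.13 (adjusted p = 0.241), and the other neighbours lay between -0.30 and -0.13. In RC against CC the neighbours lay between -0.33 and 0.21 and did not pass. Without those 3 arrays Herpud1 passed there (-0.32) and in RC against DC (-0.33).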
